A study of Saccharomyces cerevisiae with 36 samples.

Results

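The 60 genes described here encode the ribosomal proteins L1 to L34 of the large (60S) ribosomal subunit of the budding yeast Saccharomyces cerevisiae. They were chosen by systematic ID, by a rule that used no measured value, though earlier results of these data were known. All 60 were found among the 9765 features of the deposited table, of which 5798 are protein-coding genes (mRNAs). They make 34 proteins: 26 proteins have a pair of gene copies (A and B) and 8 have a single copy, namely RPL3, RPL5, RPL10, RPL25, RPL28, RPL29, RPL30 and RPL32. The series asked how RNA decay in the cytoplasm, nonsense-mediated decay in particular, limits yeast RNA levels. Its strand-specific RNA-seq covered rRNA-depleted RNA of 12 groups of 2 libraries and RNA digested with Terminator, an exonuclease that removes RNAs with a 5′ monophosphate, of 4 groups of 2 libraries. CAGE, which maps capped 5′ ends, covered 2 samples of dcp2-7 and 2 of wild type, from cultures in YPD moved to 37 °C for 2 hours.

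The groups were strains lacking Xrn1, each with a wild type of its own background: S288C (YAM6 xrn1D and YAM1 wild type), W303 (YAM97 xrn1D and YAM92 wild type), haploid SK1 (YAM2087 xrn1D and YAM1977 wild type) and diploid SK1 (YAM2068 xrn1D/xrn1D and YAM2067 wild type, written SK1_2n). The decapping mutant YAM2283 dcp2-7 and YAM1 wild type were both from 37 °C. The YAM202 upf1D strain was set against a second set of YAM1 wild-type libraries (WT_UPF1). Terminator-treated groups were xrn1D and wild type of S288C, and dcp2-7 and wild type at 37 °C. Each genotype stands for 1 strain of its background, the growth temperature of the RNA-seq groups not marked 37 °C is not given in the labels, and ages do not apply. The series calls the libraries biological replicates without saying that they came from separate cultures, so the p-values below measure the spread between these libraries.

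Ribosomal protein mRNAs are among the most abundant and most stable mRNAs of growing yeast, and they are made in concert under Rap1, Fhl1, Ifh1 and Sfp1 and under the TOR pathway. Cytoplasmic mRNA decay runs mainly through deadenylation, removal of the cap by Dcp2 and digestion from the 5′ end by Xrn1. Nonsense-mediated decay (NMD), which needs the helicase Upf1 (gene NAM7), sends RNAs with an early stop codon, unspliced pre-mRNAs that reach the cytoplasm among them, into the same pathway. Ribosomal protein genes hold a large part of the introns of yeast, and some of their proteins repress the splicing of their own pre-mRNA.

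Of the 60 genes, 39 have an annotated intron between coding parts (41 introns, since RPL7A and RPL7B have 2 each) and 21 have none there. Introns before the start codon were not searched, and an intron below means one between coding parts. Intron lengths had a median of 414 nt and ran between 147 and 561 nt. The 5′ splice sites of members that the results below turn on, taken from the RefSeq sequence of genome build R64, are shown first because the first 6 intron bases differ among them. Capitals mark those 6 bases, the lower case bases before them are the end of the exon, and each line is 5′ to 3′ on the gene's strand.
RPL22B: ccaaacGTACGTtaattt
RPL22A: ccaaacGTATGAtacttt
RPL28: tctcagGTATGTagttcc
RPL31B: aaaagaGTATGTcgaaat
RPL30: gagatgGTCAGTataaca
The introns lie at chr6:64600-64920 on the minus strand for RPL22B, chr12:263206-263594 on the plus strand for RPL22A, chr7:311016-311526 on the plus strand for RPL28, chr12:931350-931698 on the minus strand for RPL31B and chr7:439094-439323 on the plus strand for RPL30. The sequence GTATGT opened 33 of the 41 introns (80.5%), against 172 of 240 introns of other genes (71.7%). The 8 exceptions were GTACGT in RPL16A, RPL16B, RPL22B, RPL27A and RPL27B (5 introns, 12.2%, against 8.75% of introns of other genes), GTATGA in RPL22A, GTGAGT in RPL20A and GTCAGT in RPL30. The branch point sequence TACTAAC, searched on the gene's strand, was found in 38 of 41 introns (92.7%), against 194 of 240 (80.8%). Its last A lay a median of 38 nt before the end of the intron, at most 62 nt, and the shortest distance was the 16 nt of RPL22B.

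Translation of an unspliced member RNA would in most members meet a stop codon early. Read in frame across the exon junction, the stop codon fell inside the first intron in 37 of 37 members in which this could be read, at a median of codon 17 and between codons 4 and 115. The other 2 intron-bearing members, RPL20A and RPL20B, have the intron inside the start codon. The run from the start codon to that stop, in capitals, is shown for members with a short one.
RPL22B: atggctccaaacgtacgtTAA
RPL22A: atggccccaaacgtaTGA
RPL30: atggtcagtataacaTGA
RPL25: atggctccatctggtatgTGA
Each of these 4 would end after 18 or 21 nt, whereas their spliced frames hold 123 codons in RPL22B, 122 in RPL22A, 106 in RPL30 and 143 in RPL25. A stop codon inside the first intron of the unspliced RNA was thus shared by 37 of the 39 intron-bearing members. It came late in RPL17A (codon 115 of 185) and RPL17B (codon 108 of 185). The share among introns of other genes was not counted.

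The deposited values are densities: reads per nucleotide of the whole feature, introns included, times 1 factor per library that makes the summed reads of 77 snoRNAs equal in all libraries. Spliced and unspliced RNA of a gene are therefore counted together, and a change is relative to snoRNA. Reads on features ranged from 11021562 to 68466587 per rRNA-depleted library (855671 to 4568273 of them on the 60 members) and from 13208233 to 23350952 per Terminator library (873920 to 1610801 on the members), and the lowest read count of any member in any library was 202, for RPL15B in a W303 wild-type library. XRN1 had a density of at most 0.00399 in the xrn1D libraries, against 0.334 to 1.62 in their wild types, and NAM7 had 0.000869 and 0.00151 in upf1D, against 0.589 and 0.581 in WT_UPF1. The dcp2-7 allele is not a deletion, and DCP2 read density does not check it. A gene rose or fell where limma gave a Benjamini-Hochberg adjusted p under 0.05 over all features, and SE is limma's moderated standard error on the log2 scale.

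In wild-type cells all 60 members stood above the median mRNA, and 57 stood above the 90th percentile of mRNAs. Averaged over the wild types of the rRNA-depleted set, their median density was 11.5, against 0.203 for all mRNAs. The densest were RPL10 (42.8), whose protein joins the subunit last in the cytoplasm, RPL15A (40.8), RPL3 (37.7), whose protein lies next to the peptidyl transferase centre, RPL5 (31.2), which carries the 5S rRNA, and RPL9A (24.9). The lowest were RPL15B (0.343), RPL22B (0.910), RPL7B (1.37), RPL18B (2.35) and RPL31B (4.21), each a B copy. Density counts intron length, and the order changed when reads were set per coding nucleotide. RPL28 (47.4), RPL32 (43.8) and RPL10 (42.8) then led, with RPL5 at rank 13 and RPL9A at rank 19. At the low end RPL4B (6.08) took the place of RPL31B (8.51). RPL15A and RPL15B, which encode almost the same protein, thus differed more in level than any other pair named here.

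Loss of Xrn1 raised most member mRNAs in every background on this scale, but by far less than the typical mRNA. In S288C 41 of 60 members rose and 0 fell, with a median log2 change of 0.37, against 1.58 for all mRNAs, of which 94.8% rose and 0.260% fell. In W303 58 rose and 0 fell (median 0.60, against 1.97; 97.6% of all mRNAs rose and 0.243% fell). In haploid SK1 32 rose and 6 fell (median 0.31, against 1.55; 92.9% and 1.08%), and in diploid SK1 all 60 rose and 0 fell (median 1.33, against 3.14; 97.2% and 0.399%). The counts of members that rose in S288C and haploid SK1 lay well under these backgrounds. In the 3 comparisons with 0 members that fell, limma gave 0 falls at an unadjusted p under 0.05 as well, and voom on recovered reads gave 0.

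RPL22B (YFL034C-A, chr6:64243-64932, minus strand), the minor copy of a pair whose protein represses splicing of the RPL22B pre-mRNA, had by far the largest change of any member in each background. Its density was 8.59 and 8.76 in S288C xrn1D, against 1.39 and 1.37 in wild type, and 11.4 and 12.3 in W303 xrn1D, against 1.39 and 1.5 in wild type. In haploid SK1 it was 6.55 and 6.86 in xrn1D, against 0.966 and 0.771 in wild type, and in diploid SK1 7.33 and 7.11 in xrn1D/xrn1D, against 0.353 and 0.398 in wild type. All 8 xrn1D libraries stood above all 8 wild-type libraries. The log2 changes were 2.65 ± 0.16 (SE), 3.03 ± 0.16, 2.95 ± 0.16 and 4.25 ± 0.16, with limma adjusted p of 3.5e-13, 2.4e-14, 8.4e-14 and 1.5e-17. It was the single member whose change exceeded the mRNA median in all 4 backgrounds.

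**Figure D1:**
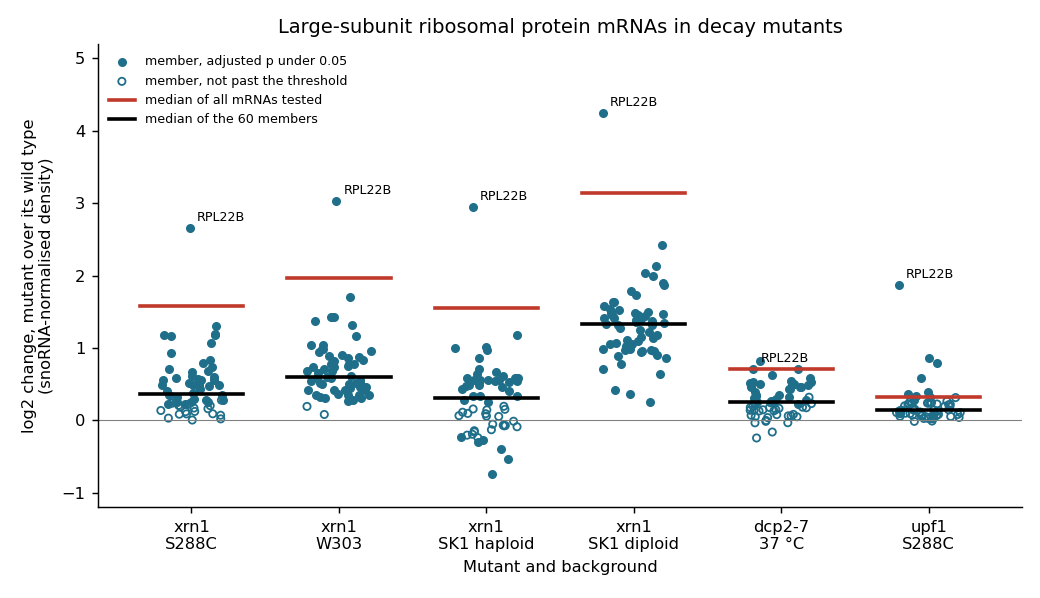
Log2 change of each of the 60 mRNAs (points; filled where the limma adjusted p is under 0.05) in 6 mutants over their wild types, with the median of the members (black bar) and of all mRNAs tested (red bar). The black bar lies under the red one in every column, and RPL22B reaches 2.65 to 4.25 in the xrn1 columns.

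Other minor copies and some single-copy genes followed at a distance. RPL7B (YPL198W, chr16:173152-174702, plus strand) had densities of 3.34 and 3.39 in S288C xrn1D, against 1.35 and 1.38 in wild type, a change of 1.30 ± 0.13 (adjusted p 1.4e-09). RPL9B (YNL067W) had 17.0 and 17.2, against 8.39 and 7.86, a change of 1.07 ± 0.11 (adjusted p 2.6e-09). RPL15B (YMR121C) had 0.814 and 0.855, against 0.354 and 0.373, a change of 1.19 ± 0.17 (adjusted p 5.1e-07). In these 3 B copies both xrn1D libraries were above both wild-type libraries, as in 57 of 60 members and 5654 of 5798 mRNAs. All 3 also rose in W303 (1.43, 1.43 and 1.71), haploid SK1 (0.56, 1.18 and 0.59) and diploid SK1 (1.73, 2.43 and 1.53). RPL18B rose by 1.18, 1.37, 1.01 and 2.14 in S288C, W303, haploid SK1 and diploid SK1. RPL3 was the single-copy gene with the largest change in W303 and in both SK1 backgrounds: 91.7 and 97.5 in W303 xrn1D, against 43.3 and 48.4 in wild type, without overlap (1.05 ± 0.11, adjusted p 8.9e-09). Its changes were 0.74 in S288C, 1.01 in haploid SK1 and 2.03 in diploid SK1. In W303 both xrn1D libraries were above both wild-type libraries in 60 of 60 members and 5670 of 5798 mRNAs.

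At the other end stood RPL1A (YPL220W) and RPL7A (YGL076C), which rose in 1 background only, diploid SK1. RPL1A, a copy of the gene for the L1 stalk protein, had 20.9 and 21.4 in S288C xrn1D, against 21.3 and 20.8 in wild type, so the groups overlapped (0.01 ± 0.10, adjusted p 0.96). In diploid SK1 it had 9.47 and 8.92 in xrn1D/xrn1D, against 6.99 and 8.54 in wild type (0.25 ± 0.10, adjusted p 0.027), the smallest change of any member there. RPL7A gave 0.02 ± 0.11, 0.19 ± 0.11 and -0.07 ± 0.11 in S288C, W303 and haploid SK1, and 0.65 ± 0.11 in diploid SK1 (adjusted p 1.0e-05). Of the 60 members, 31 rose in all 4 backgrounds, 11 in 3, 16 in 2 and 2 in 1.

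The 6 members that fell in haploid SK1 xrn1D were RPL31A, RPL29, RPL32, RPL24A, RPL24B and RPL19B. RPL31A, whose protein sits near the polypeptide exit, had 10.8 and 10.8, against 19.4 and 16.8 in wild type, a clear separation (-0.74 ± 0.11, adjusted p 1.2e-06). RPL29 had 12.9 and 13.2, against 17.3 and 20.5 (-0.53 ± 0.12, adjusted p 2.0e-04), again without overlap. Both xrn1D libraries lay under both wild-type libraries in 12 of 60 members and 115 of 5798 mRNAs. RPL32 changed by -0.39, RPL24A by -0.30, RPL24B by -0.27 and RPL19B by -0.24. These genes did not fall in the other backgrounds: RPL31A changed by 0.12, 0.35 and 0.41 and RPL29 by 0.17, 0.33 and 0.37 in S288C, W303 and diploid SK1. Without the first haploid SK1 wild-type library the count that fell was 3. Features of RPL24A, RPL24B, RPL29 and RPL32 extend beyond the coding gene of R64, and all 4 of them fell here.

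Relative to other mRNAs, most members were lower in every background. When each library was rescaled to its own median mRNA density, 59 of 60 members were lower in xrn1D and 1, RPL22B, was higher in each of the 4 backgrounds. The median of all mRNAs itself was -0.12 on this scale in S288C, against 1.58 on the deposited one. The members' median changes were then -1.42 in S288C, -1.56 in W303, -1.41 in haploid SK1 and -2.21 in diploid SK1. All mRNAs rose and fell in 29.0% and 43.6% in S288C, 30.4% and 43.5% in W303, 32.0% and 43.6% in haploid SK1, and 31.4% and 48.4% in diploid SK1. RPL22B was thus higher on both scales in each background, and the 6 members that fell in haploid SK1 were lower on both scales there. The other members that rose on the deposited scale were lower on that of the median mRNA.

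Members with and without an intron were both among those that rose. Of the 39 with an intron, 27 rose in S288C xrn1D, 38 in W303, 21 in haploid SK1 (2 fell) and 39 in diploid SK1, with medians of 0.38, 0.61, 0.33 and 1.35. Of the 17 with neither an intron nor a longer feature, 13, 16, 11 and 17 rose, with medians of 0.49, 0.71, 0.49 and 1.31. The difference between these 2 kinds of member was not tested.

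The share of mRNA reads that fell on the members does not depend on either scale. It was 6.8% and 6.9% in S288C xrn1D, against 9.19% and 9.3% in wild type, and 6.86% and 6.7% in W303 xrn1D, against 9.85% and 9.5% in wild type. In haploid SK1 it was 6.31% and 6.32%, against 10% and 9.94%, and in diploid SK1 5.5% and 5.6%, against 8.85% and 9.24%. All xrn1D libraries lay below all wild-type libraries. The mean share was 6.37% in xrn1D and 9.49% in wild type, a difference of -3.11 percentage points (exact two-sided permutation test within the 4 backgrounds, 1296 arrangements, p = 0.00154, the smallest p these arrangements can give). The share was lower in 4 of 4 backgrounds.

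**Figure D2:**
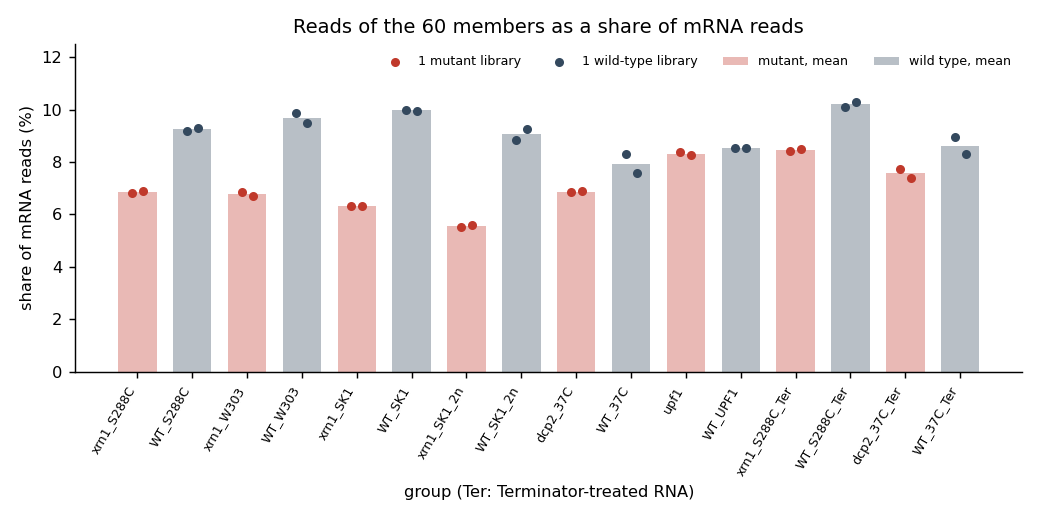
Share of mRNA reads on the 60 members in each library (points) and the mean of 2 libraries (bars), by group, in percent. The 8 xrn1D libraries of rRNA-depleted RNA lie between 5.5% and 6.9%, under the 8.85% to 10% of their wild types, and upf1D (8.39% and 8.25%) lies close to WT_UPF1 (8.54% and 8.52%).

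Changes of the members in 1 background went with those in the others. Across the 60 members, Pearson's r between the changes of any 2 backgrounds, which share no library, was 0.821 to 0.912, and 0.688 to 0.84 without RPL22B, and Spearman's rho was 0.766 to 0.903. Members are not independent replicates, and r is given as a description. The test of the difference between backgrounds found 1 member with a larger and 2 with a smaller change in W303 than in S288C, against 29.2% and 3.73% of all mRNAs. The 2 were RPL14A (-0.86 ± 0.15, adjusted p 0.00033) and RPL17A (-0.67 ± 0.17, adjusted p 0.0065), and the 1 was RPL33B (0.63 ± 0.15, adjusted p 0.0061). With the median mRNA as scale 0 members had a larger and 4 a smaller change (9.44% and 9.75%).

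RPL14A and RPL17A are the 2 members on chromosome 11. RPL14A had 39.8 and 39.0 in S288C xrn1D, against 17.3 and 17.9 in wild type, whereas it had 21.8 and 23.0 in W303 xrn1D, against 18.2 and 18.1 in wild type. RPL17A had 32.4 and 31.3 in S288C xrn1D, against 14.3 and 13.7 in wild type, and 16 and 17.2 in W303 xrn1D, against 10.9 and 12.3 in wild type. The S288C xrn1D libraries thus stood apart from W303 for both genes. The same libraries showed a chromosome-wide difference: mRNAs of chromosome 11 had a median change of 2.46 in S288C, against 1.54 for other chromosomes, while in W303 the medians were 1.96 and 1.97. The part of this in the result for the 2 genes was not tested. Without them r between S288C and W303 was 0.977.

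Haploid SK1 differed from S288C by a smaller change in 15 members and a larger one in 0 (18.6% and 13.5% of all mRNAs; 0 also at an unadjusted p under 0.05 with limma and with voom). The most negative differences were RPL14A (-1.01 ± 0.15), RPL31A (-0.86 ± 0.15) and RPL7B (-0.74 ± 0.18), with adjusted p of 8.1e-06, 9.7e-05 and 0.0020. Leaving out single libraries gave 7 to 17 such members, and 7 to 9 without any 1 of the S288C libraries, either haploid SK1 xrn1D library or the first SK1 wild-type library. Diploid SK1 differed from S288C by a larger change in 54 members and a smaller one in 0 (86.5% and 3.32% of all mRNAs; 0 by both other counts). The difference was 1.59 ± 0.22 for RPL22B, 1.40 for RPL17B and 1.35 ± 0.15 for RPL9B, with adjusted p of 1.0e-06 and 4.2e-08 for RPL22B and RPL9B. On the scale of the median mRNA 9 and 21 members had a larger and a smaller change in haploid SK1 (29.4% and 22.8% of all mRNAs), and 0 and 59 in diploid SK1 (27.3% and 37.0%), which turns the direction for the diploid. Mean densities of all 60 members were lower in diploid than in haploid SK1 wild type, with a median ratio of 0.448 (range 0.267 to 0.656). RPL10, for example, had 19.8 and 25.4 in diploid, against 53.3 and 44.8 in haploid SK1 wild type, and RPL31A averaged 5.17, against 18.1. This drop was for the most part not particular to the members. Their share of mRNA reads differed far less, at 8.85% and 9.24% in diploid, against 10% and 9.94% in haploid SK1 wild type. The summed mRNA signal relative to snoRNA was thus lower in the diploid wild type as well, and the cause was not tested.

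The copies of a pair could differ widely in their response. In xrn1D the copy with the lower wild-type level had the larger change in 21 of 26 pairs in S288C, 23 in W303, 20 in haploid SK1 and 22 in diploid SK1. Wild-type levels enter both the ranking and the change, so this is a description. In 22 pairs the same copy changed more in all 4 backgrounds, the B copy in 12 of them. The 5 pairs that differed most were RPL22, RPL9, RPL7, RPL31 and RPL15, each with the B copy above the A copy.

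RPL22A, the major copy, had 24.3 and 25.8 in S288C xrn1D, against 17.7 and 16.4 in wild type (0.55 ± 0.12, adjusted p 0.00015), so the B copy exceeded it by 2.10 on the log2 scale. The same difference was 2.17 in W303, 2.85 in haploid SK1 and 2.79 in diploid SK1. RPL9A had 32.9 and 32.8, against 30.7 and 31.1 (0.09 ± 0.11, adjusted p 0.46), and RPL9B exceeded it by 0.99, 1.07, 1.42 and 1.37. RPL7B exceeded RPL7A by 1.28, 1.24, 0.63 and 1.09. Differences over 1 were seen in 2, 4, 3 and 6 of the 26 pairs in S288C, W303, haploid SK1 and diploid SK1.

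**Figure D3:**
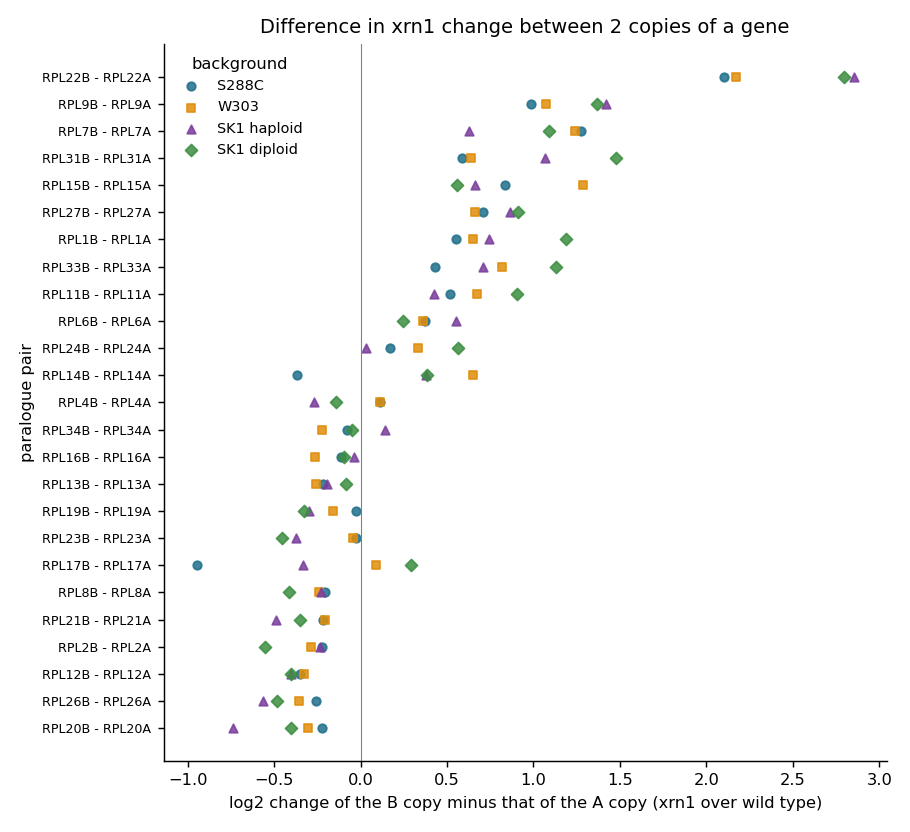
Log2 change of the B copy minus that of the A copy in xrn1D over wild type, for the pairs with both copies reported here (rows) in 4 backgrounds (symbols). RPL22 lies at 2.10 to 2.85, far from the other pairs, and RPL14 and RPL17, whose A copies are on chromosome 11, have S288C values to the left of their other symbols.

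The sources used here do not say how reads shared by both copies were assigned. Coding identity of the copies in R64 was 78.9% for RPL22, the lowest, and 99.4% for RPL1, the highest. More than 40% of the 50-nt windows of the A copy occurred in the B copy in 5 pairs (RPL1 81.0%, RPL4 72.7%, RPL11 60.9%, RPL7 56.9%, RPL14 42.1%), and values of these copies are uncertain. In 7 pairs no window was shared, RPL22 and RPL31 among them. The RPL7A and RPL7B features also hold snoRNA genes in an intron, snR39 and snR59. Reads listed for snR39 equalled 38.3% to 50.4% of the RPL7A reads, and those of snR59 17.7% to 38.9% of the RPL7B reads. With those reads taken off, RPL7B changed by 1.35 in S288C xrn1D and RPL7A by 0.0385.

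In dcp2-7 at 37 °C 30 of 60 members rose and 0 fell, with a median of 0.25, against 0.71 for all mRNAs, of which 80.2% rose and 1.55% fell. On the scale of the median mRNA 0 were higher and 58 lower (23.6% and 39.8%), with a median of -0.62. On the deposited scale no member fell at an unadjusted p under 0.05 with limma, and voom gave 0 as well. RPL4B had the largest change, with 8.32 and 7.80 in dcp2-7, against 3.99 and 5.26 in wild type (0.81 ± 0.14, adjusted p 1.5e-05), without overlap. RPL22B had 2.23 and 1.87, against 1.17 and 1.33, also without overlap (0.71 ± 0.16, adjusted p 0.00037). RPL7B (0.70), RPL27B (0.63), RPL31B (0.58) and RPL15A (0.54) followed. Both dcp2-7 libraries lay above both wild-type libraries in 35 of 60 members and 4890 of 5798 mRNAs. RPL15B was the lowest, with 0.402 and 0.375, against 0.437 and 0.485 (-0.24 ± 0.17, adjusted p 0.19). The lower copy had the larger change in 19 of 26 pairs. The members' share of mRNA reads was 6.87% and 6.88% in dcp2-7, against 8.32% and 7.56% in wild type; 2 libraries against 2 cannot give an exact p below 0.33. Leaving out single libraries gave between 14 (without the first 37 °C wild-type library) and 37 members that rose, and 17 without the first dcp2-7 library.

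In upf1D 9 members rose and 0 fell (median 0.14, against 0.32; 47.0% of all mRNAs rose and 0.521% fell), and limma at an unadjusted p under 0.05 and voom also gave 0 falls. The 9 were RPL22B, RPL7B, RPL28, RPL31B, RPL6B, RPL8A, RPL9B, RPL26A and RPL11B, of which 6 have an intron. The count was 14 without the second upf1D library and 5 without the first. Thus most members did not pass the test, intron-bearing ones included: 6 of 39 with an intron rose, and 3 of the 17 with neither an intron nor a feature longer than the coding gene.

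RPL22B had 2.19 and 1.43 in upf1D, against 0.441 and 0.526 in WT_UPF1, with no overlap (1.87 ± 0.16, adjusted p 5.5e-10). RPL28 (YGL103W, chr7:310967-311927, plus strand), known as CYH2, whose unspliced RNA is a classic substrate of NMD, had 32.5 and 30.9, against 18.2 and 18.5 (0.79 ± 0.09, adjusted p 1.6e-07). RPL7B had 1.75 and 1.44, against 0.883 and 0.867 (0.86 ± 0.13, adjusted p 3.1e-06). RPL31B had 4.27 and 3.88, against 2.58 and 2.83 (0.59 ± 0.11, adjusted p 9.6e-05). In all 4 genes both upf1D libraries lay above both wild-type libraries, as in 46 of 60 members and 4324 of 5798 mRNAs. The partner copy, where there is one, did not pass the test: RPL22A changed by 0.22, RPL7A by 0.08 and RPL31A by 0.22. RPL6B changed by 0.40, RPL8A by 0.36, RPL9B by 0.34, RPL26A by 0.32 and RPL11B by 0.29.

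**Figure D4:**
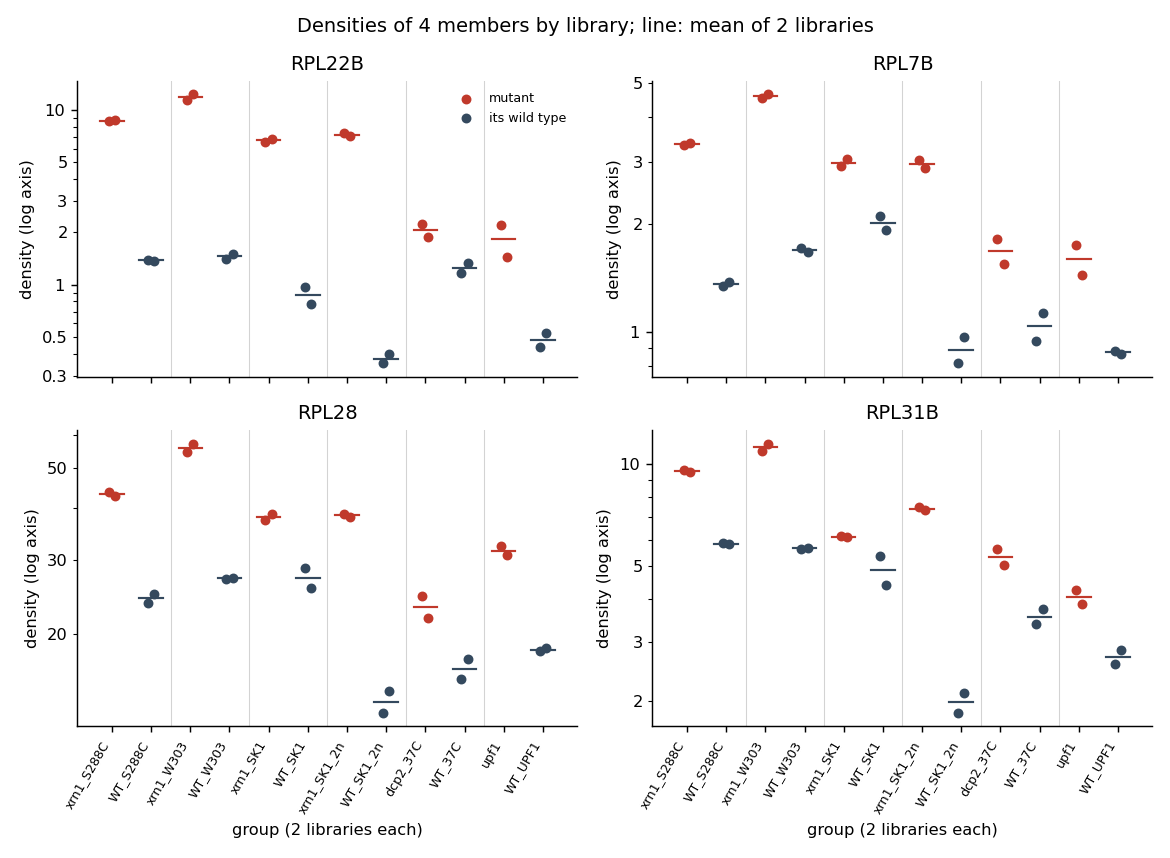
Density of RPL22B, RPL7B, RPL28 and RPL31B in each rRNA-depleted library (points, log axis) with the mean of 2 libraries (lines), mutant (red) left of its wild type (dark blue-grey). RPL22B in upf1D, at 2.19 and 1.43, stands above the 0.441 and 0.526 of WT_UPF1 but near the 1.39 and 1.37 of the other YAM1 wild-type set.

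RPL30, whose protein represses splicing of its own pre-mRNA, had 24.5 and 22.5 in upf1D, against 19.4 and 19.8 in wild type, and missed the threshold (0.26 ± 0.13, adjusted p 0.085). RPL25, with a stop codon as early as that of RPL22B in its unspliced RNA, had 19.4 and 17.8, against 17.9 and 18.3 (0.04 ± 0.11, adjusted p 0.78), so its groups overlapped. RPL30 did rise in xrn1D: 47.0 and 44.1 in S288C, against 29.7 and 30.4 (0.60 ± 0.13, adjusted p 0.00014). RPL28 rose there too, with 43.8 and 42.8, against 23.8 and 24.9 (0.83 ± 0.09, adjusted p 1.9e-08). On the scale of the median mRNA, 3 members were higher in upf1D, RPL22B, RPL7B and RPL28, and 56 lower (22.5% and 53.2% of all mRNAs), with a members' median of -0.49.

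Wild-type sets of the same strain also differed. WT_UPF1 and the S288C wild-type set are both YAM1, and 57 members were lower in WT_UPF1 and 0 higher (median -0.62, against -0.55; 69.8% and 1.28% of all mRNAs; 0 by unadjusted limma and voom). RPL34A (-1.86) and RPL22B (-1.50) had the largest differences, and RPL2B (-0.02), RPL1A (-0.15) and RPL3 (-0.23) did not pass the test. On the scale of the median mRNA 20 members were higher and 17 lower (34.4% and 23.4%), with a median of 0.06.

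At 37 °C wild-type cells had 56 members lower and 0 higher than the S288C wild type with no stated temperature (16.6% and 10.7% of all mRNAs). Limma at an unadjusted p under 0.05 and voom gave 0 higher as well. The median was -0.66, against -0.07 for all mRNAs, and on the scale of the median mRNA 57 were lower and 0 higher (28.6% and 19.3%), median -0.62. RPL32 had 14.6 and 18.3 at 37 °C, against 33.9 and 30.3, without overlap (-0.97 ± 0.11, adjusted p 1.2e-06). RPL9A had 15.7 and 16.7, against 30.7 and 31.1, again apart (-0.93 ± 0.11, adjusted p 2.5e-06), while its copy RPL9B gave 0.07 ± 0.11 (adjusted p 0.66). RPL15B (0.34), RPL22B (-0.14) and RPL14B (-0.24) were the other members that did not pass. Both 37 °C libraries lay under both S288C wild-type libraries in 58 of 60 members and 2110 of 5798 mRNAs. Temperature and library set cannot be told apart here, since the groups were made as different sets.

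Relative to snoRNA, no member mRNA was called lower after Terminator in wild-type RNA. Whether Terminator changed the snoRNA reads themselves was not tested. Untreated means the rRNA-depleted libraries without Terminator. The labels name RiboMinus or Terminator treatment, so the depletion step and the digestion cannot be told apart here. Treated over untreated wild type of S288C gave 28 members higher and 0 lower (median 0.35, against -0.05; 11.1% and 15.6% of all mRNAs). In dcp2-7 42 were higher and 0 lower (median 0.42, against 0.16; 20.4% and 3.85%), and in wild type at 37 °C 33 and 0 (median 0.39, against 0.16; 17.9% and 2.43%). For the 3 counts of 0, limma at an unadjusted p under 0.05 and voom gave 0 too. Rescaled to the median mRNA, the counts were 56 and 0 in wild type of S288C, 53 and 0 in dcp2-7 and 40 and 0 in wild type at 37 °C. All mRNAs were higher and lower on that scale in 32.6% and 26.4%, 29.3% and 20.4%, and 23.6% and 20.8%. The counts moved with single libraries. In wild type of S288C they were 9 without either untreated library and 10 without the second treated one. In dcp2-7 they were 9 without the second untreated library, and 15 and 19 without the first and the second treated one. In wild type at 37 °C they were 9 without the first untreated or the second treated library, and 54 without the first treated one.

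In xrn1D of S288C Terminator gave 3 members higher (RPL4A, RPL4B and RPL17A) and 24 lower, with a median of -0.21, against -1.10 for all mRNAs, of which 1.78% were higher and 88.4% lower. RPL22B had 2.10 and 2.37 in treated xrn1D RNA, against 8.59 and 8.76 untreated, far apart (-1.95 ± 0.15, adjusted p 3.5e-12). In wild type it had 1.72 and 2.02 treated, against 1.39 and 1.37 untreated (0.44 ± 0.15, adjusted p 0.034). After Terminator the xrn1D and wild-type densities of RPL22B were thus close to each other. RPL15B changed by -1.13 ± 0.14 in xrn1D (0.382 and 0.372 treated, against 0.814 and 0.855 untreated) and RPL33B by -1.08 ± 0.15 (4.37 and 5.12, against 9.47 and 10.6), both without overlap.

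RPL4A, whose protein lines the exit tunnel, had 28.3 and 26.6 in treated xrn1D RNA, against 21.5 and 20.2 untreated (0.40 ± 0.15, adjusted p 0.017). In wild type it had 26.6 and 25.6 treated, against 14.5 and 13.8 untreated (0.88 ± 0.15, adjusted p 5.2e-05). RPL4A was thus higher relative to snoRNA after treatment in both strains. RPL4A, RPL4B, RPL16A, RPL26A and RPL17A were the 5 members with the largest changes in wild type of S288C, in dcp2-7 and in wild type at 37 °C. Without the second untreated or the first treated xrn1D library, 0 members were higher in xrn1D, and without the first untreated or the first treated xrn1D library 15 were lower. On the scale of the median mRNA the direction turned round: 57 members were higher after Terminator in xrn1D and 1, RPL22B, was lower (42.6% and 27.2% of all mRNAs).

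The test of the difference found a lower response to Terminator in xrn1D than in wild type for 48 of 60 members and a higher one for 0 (87.8% and 0.175% of all mRNAs; 0 by unadjusted limma and voom), with a median of -0.52, against -1.03. RPL22B (-2.39 ± 0.22, adjusted p 2.0e-09), RPL15B (-1.51 ± 0.20, adjusted p 2.8e-07) and RPL33B (-1.06 ± 0.21, adjusted p 6.0e-05) led. Without the first treated xrn1D or the second treated wild-type library, 27 and 28 members had a lower response. With the median mRNA as scale 57 had a higher and 2 a lower response (32.8% and 16.6%). RPL8A (-0.27 ± 0.20), RPL1A (-0.33 ± 0.19) and RPL24A (-0.33 ± 0.19) were nearest to 0 and did not pass. For dcp2-7 against wild type at 37 °C the same test gave 0 higher and 0 lower (0.0175% and 0.0175% of all mRNAs, and 0 and 0 by unadjusted limma and voom), with differences between -0.11 and 0.21. The members' share of mRNA reads after Terminator was 8.42% and 8.49% in xrn1D, against 10.1% and 10.3% in wild type.

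**Figure D5:**
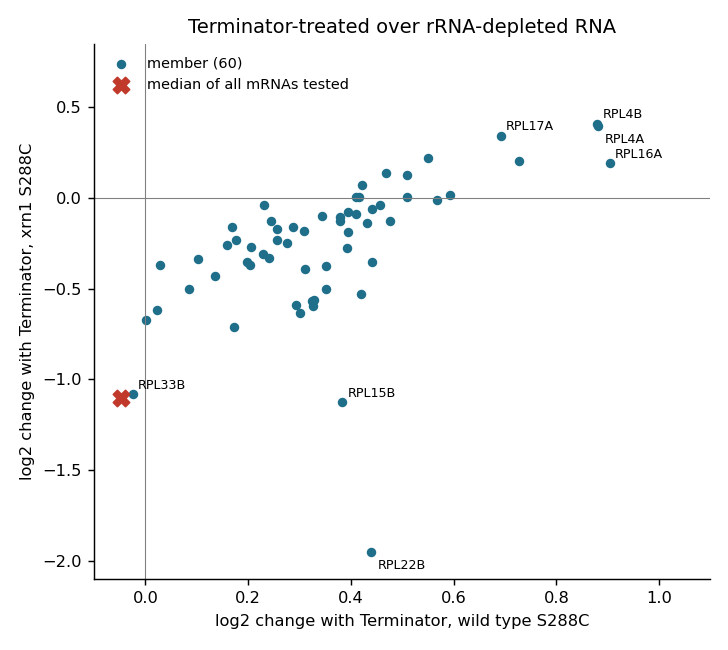
Log2 change of each of the 60 mRNAs with Terminator in S288C xrn1D (vertical) against that in wild type (horizontal), with the median of all mRNAs tested (cross). All members but RPL22B and RPL15B lie above the cross at -0.05 and -1.10, RPL22B lies lowest at -1.95, and RPL4A and RPL4B lie at the upper right.

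A larger rise without Xrn1 went with a more negative Terminator change only loosely across members. To avoid shared libraries, the xrn1D change in W303 was set against the Terminator change in S288C xrn1D: across 60 members Pearson's r was -0.704 and Spearman's rho -0.393, and without RPL22B they were -0.522 and -0.361. RPL24B, for example, changed by -0.67 with Terminator and by 0.60 in W303 xrn1D, near the members' median there. The change in upf1D and that in W303 xrn1D gave r = 0.76 and rho = 0.486, and 0.504 and 0.459 without RPL22B. These are descriptions over genes that share libraries and depth within a comparison.

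CAGE positions at 37 °C, deposited as 1 list for each genotype with its replicates pooled and no heights, placed the capped ends of member mRNAs close to the start codon. Between 200 nt upstream and 50 nt inside the coding region, 57 of 60 members had a position in dcp2-7 (95.0%) and 58 in wild type (96.7%), against 73.3% and 73.1% of other mRNAs. The 94 positions of dcp2-7 and 96 of wild type had 89 in common, and 47 members had identical sets. The nearest upstream position lay a median of 22 nt before the start codon in both lists, between 6 and 64 nt, against 41 nt in dcp2-7 and 40 nt in wild type for other mRNAs. It lay within 40 nt in 94.6% of members with such a position in dcp2-7 and 94.7% in wild type, against 48.8% and 50.6% of other mRNAs.

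The members with longer leaders were RPL1B (64 nt), RPL30 (58 nt) and RPL22B (46 nt), at the same position in both lists, whereas RPL22A had 22 nt. RPL29 and RPL32 had none in the window, and their nearest position lay 357 and 365 nt upstream in both lists. RPL24A had one in wild type only (13 nt upstream), and that of RPL24B lay 30 nt inside the coding region in both. A lncRNA of the table lay antisense to 2 of 60 members (3.33%), RPL19B and RPL34A, against 1596 of 5738 other mRNAs (27.8%).

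Other genes of the ribosome were measured beside the members. Of 21 genes for the remaining large-subunit proteins (L35 to L43 and the P proteins of the stalk), 13 rose and 0 fell in S288C xrn1D, 18 and 0 in W303, 6 and 5 in haploid SK1 and 19 and 1 in diploid SK1. Of all mRNAs 94.8%, 97.6%, 92.9% and 97.2% rose and 0.260%, 0.243%, 1.08% and 0.399% fell. Their medians of 0.38, 0.59, 0.09 and 1.04 lay, like those of the members, well under the medians of all mRNAs. RPL41A was the 1 that fell in diploid SK1 (-0.58 ± 0.09, adjusted p 2.6e-06), and it fell in haploid SK1 as well (-0.78 ± 0.09). In dcp2-7 13 rose and 0 fell (80.2% and 1.55% of all mRNAs), and in upf1D 7 and 0 (47.0% and 0.521%). Rescaled to the median mRNA, all 21 were lower in each xrn1D background, and 20 of 21 in dcp2-7 and in upf1D.

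Regulators of these genes were described the same way. All 8 listed (RAP1, FHL1, IFH1, SFP1, CRF1, HMO1, SCH9 and TOR1) rose in each of the 4 xrn1D backgrounds, with medians of 1.73, 2.06, 2.04 and 3.12, against 1.58, 1.97, 1.55 and 3.14 for all mRNAs, of which 92.9% to 97.6% rose. With the median mRNA as scale 1, 1, 5 and 3 of the 8 were higher and 2, 3, 1 and 4 lower in S288C, W303, haploid SK1 and diploid SK1. In dcp2-7 6 rose (80.2% of all mRNAs), and in upf1D 2 rose (47.0%): CRF1, a corepressor of ribosomal protein genes (1.76 ± 0.18, adjusted p 1.2e-08), and HMO1, which binds their promoters (1.14 ± 0.13, adjusted p 9.1e-08). Of 5 dedicated chaperones of single ribosomal proteins (RRB1, SQT1, SYO1, ACL4 and BCP1), 5, 5, 4 and 5 rose in the 4 backgrounds, 3 in dcp2-7 and 1 in upf1D (BCP1, 0.78 ± 0.14, adjusted p 4.2e-05), against the same shares of all mRNAs. Rescaled to the median mRNA, 5, 5, 4 and 4 of them were lower in the 4 backgrounds. SQT1, the chaperone of Rpl10, changed by 1.21 in S288C xrn1D, where RPL10 changed by 0.49: RPL10 had 73.6 and 71.6 in xrn1D, against 51.9 and 51.5 in wild type.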

How the data were processed

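The deposited RNA-seq table holds, per the file headers, a density per feature and library, used here as a signal; the authors' values times feature length came out as whole multiples of 1 value per library in 100% of cases (tolerance 0.01). Per the submitters' processing notes TopHat was used for RNA-seq and cutadapt and Bowtie for CAGE; the sources used here give no versions, no build and no treatment of reads that map to several places. The labels' protocols name hot phenol extraction, RiboMinus or Terminator treatment and a stranded TruSeq kit. Libraries called untreated are the rRNA-depleted ones, so Terminator contrasts also hold the difference in the depletion step. Terminator columns without a background name were taken as S288C, as the titles of those samples state. The members and lists were chosen with earlier results of these data known.

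Since the file held densities, not counts, limma (version 3.58.1, R 4.3.3, with a mean trend and robust variances) was used on log2(density + pseudocount), the pseudocount being the 5th percentile of non-zero densities: 0.00576637 over 24 rRNA-depleted libraries (9712 features tested, 12 residual degrees of freedom) and 0.0084084 over the 16 libraries of the Terminator model (9615 features, 8 degrees of freedom). Fold changes on this scale understate those of low genes. Features at or above the pseudocount in at least 2 libraries were tested, two-sided, with Benjamini-Hochberg adjustment over all of them; all 60 members passed. Percentages of all mRNAs are over 5760 tested mRNAs (5715 in the Terminator model, 5732 after rescaling to the median mRNA). Differences between backgrounds and between Terminator responses are interaction terms. Scripts were tested on simulated data.

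Named genes were the 6 members with the largest and the 6 with the smallest change per mutant, 3 and 3 elsewhere, the 5 highest and 5 lowest in level, the 5 pairs that differed most, and members with known regulation; members named for a call in upf1D or haploid SK1 beyond these were chosen after their values were seen. Symbols, introns and sequences come from RefSeq R64, in which 56 of 60 members have the coordinates of the table. The values of 1 member are not reported here by name, though it is in all counts. Alternatives were the median mRNA as scale, other pseudocounts, no filter, voom on recovered reads, a replicate block, leaving out libraries and, added after seeing the data, leaving out the chromosome 11 members. Python 3.11.15, pandas 2.3.3, numpy 2.4.6, scipy 1.17.1 and matplotlib 3.10.9 were used.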

Additional observations from a re-analysis of the deposited data

Results flagged for a closer look

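Differences between backgrounds and between Terminator responses passed the test of the difference itself in the following cases, on the snoRNA-normalised scale; their causes were not tested. In W303 relative to S288C the xrn1D change was larger in 1 member and smaller in 2 (29.2% and 3.73% of all mRNAs): RPL33B (0.634), RPL14A (-0.858) and RPL17A (-0.668). In haploid SK1 relative to S288C it was smaller in 15 members (18.6% of all mRNAs), most so in RPL14A (-1.01), RPL31A (-0.859) and RPL7B (-0.736). In diploid SK1 relative to S288C it was larger in 54 members (86.5% of all mRNAs), with RPL22B (1.59), RPL17B (1.4) and RPL9B (1.35) in the lead. The Terminator response was lower in xrn1D than in wild type in 48 members (87.8% of all mRNAs), most so in RPL22B (-2.39), RPL15B (-1.51) and RPL33B (-1.06). The counts for diploid SK1 and for Terminator lay near or under those shares. Both directions turned round with the median mRNA as scale. RPL14A and RPL17A lie on chromosome 11, whose mRNAs had a median xrn1D change of 2.46 in S288C, against 1.54 for mRNAs of other chromosomes.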

How the results depend on the processing

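With another pseudocount, no filter, voom on recovered reads or the replicate block, each of the 34 counts of members stayed within 1.5 times its value above. No pairing was used: replicate numbers correlated by -0.0707 to 0.06 between mutant and wild type and by -0.14 to 0.247 between Terminator and untreated libraries, over 2 pairs per comparison. Under the replicate block 1 of 148 named results lost its call. The share of mRNA reads stayed lower in xrn1D in each of the 16 cases that left out 1 library. That outcome was fixed beforehand, since all xrn1D libraries lay below all wild-type libraries.

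The scale changed most. With the median mRNA as scale, members higher and lower were 1 and 59 in each xrn1D background, 0 and 58 in dcp2-7, 3 and 56 in upf1D, and 20 and 17 in WT_UPF1 over the S288C wild type. Differences from S288C were 0 and 4 members for W303, 9 higher for haploid SK1, and 0 and 59 for diploid SK1. Terminator counts were 57 and 1 in xrn1D and 56 higher in wild type, and the difference of responses 57 and 2. Without the 2 members on chromosome 11, 0 members were lower in W303 minus S288C. That count was fixed beforehand, since those 2 were the members called lower, and it tests nothing about the chromosome. With the median mRNA as scale these log2 changes turned round. For S288C xrn1D they were RPL1A -1.78, RPL7A -1.77, RPL13B -1.76, RPL8B -1.72, RPL9A -1.70, RPL32 -1.70, RPL14A -0.63, RPL18B -0.61, RPL15B -0.58, RPL17A -0.60, RPL7B -0.49, RPL28 -0.96. For W303 xrn1D they were RPL1A -2.08, RPL7A -1.96, RPL24A -1.89, RPL13B -1.88, RPL14A -1.85, RPL11A -1.85, RPL33B -0.84, RPL18B -0.79, RPL7B -0.72, RPL9B -0.72, RPL15B -0.42, RPL28 -1.12. For haploid SK1 xrn1D they were RPL33B -0.85, RPL4A -0.74, RPL18B -0.71, RPL3 -0.71, RPL9B -0.54, RPL7B -1.16, RPL28 -1.24. For diploid SK1 xrn1D they were RPL1A -3.29, RPL29 -3.17, RPL31A -3.12, RPL7A -2.89, RPL24A -2.82, RPL32 -2.76, RPL31B -1.64, RPL33B -1.54, RPL3 -1.51, RPL18B -1.39, RPL9B -1.11, RPL7B -1.79, RPL28 -2.06. For dcp2-7 they were RPL15A -0.32, RPL31B -0.28, RPL27B -0.23, RPL7B -0.16, RPL22B -0.16, RPL4B -0.049, RPL28 -0.37. For upf1D they were RPL16B -0.61, RPL12B -0.61, RPL25 -0.60, RPL8A -0.28, RPL6B -0.24, RPL31B -0.047. For WT_UPF1 over the S288C wild type they were RPL3 0.45, RPL1A 0.52, RPL2B 0.66. For W303 minus S288C it was RPL15A -0.30. For diploid SK1 minus S288C they were RPL17A -1.59, RPL29 -1.55, RPL9B -0.40, RPL17B -0.34, RPL22B -0.14. For Terminator in xrn1D they were RPL15B 0.10, RPL33B 0.17. For the Terminator response of xrn1D minus wild type they were RPL33B 0.098, RPL24A 0.83, RPL1A 0.83, RPL8A 0.89. The cause was not tested.

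Without single libraries, members that fell in haploid SK1 xrn1D numbered 3 to 7, rises in dcp2-7 14 to 37 and in upf1D 5 to 14. Smaller changes in haploid SK1 than in S288C numbered 7 to 17, and in diploid SK1 0 to 1. Terminator gave 0 to 2 higher and 15 to 22 lower in xrn1D, 9 to 21 higher in wild type of S288C, 9 to 39 in dcp2-7, 9 to 54 in wild type at 37 °C, and 27 to 48 lower in the difference of responses. Densities with 2 libraries a group, introns included, cannot separate spliced from unspliced RNA or near-identical copies, and reads are not independent molecules.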
